A study of Mus musculus with 24 samples.

Results

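Normal ageing of the mouse left ventricle was read from the nontransgenic hearts of the series, by setting 3 arrays of NTG mice at 12 months against 3 arrays of NTG mice at 4 months. The 6 arrays, out of 24, were taken by their titles, and no measured value entered that choice. NTG is the labels' name for nontransgenic mice, which carry neither of the study's alterations and received no treatment that the labels name. The remaining 18 arrays, 3 per age and genotype, came from mice with a mutant α-tropomyosin transgene (Tm180), mice without phospholamban (PLB KO) and mice with both (Tm180/PLB KO). They serve here as a comparison of the same ages in hearts that the NTG comparison does not use. Their ages were not matched in sex signal, as given further on. The labels give neither strain, sex nor the number of mice behind an array, nor the promoter that drives the transgene. The titles call the arrays biological replicates. Values are log2 expression levels, so a difference of 1 means 2-fold.

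The adult ventricle lives mainly on fatty acids, which its mitochondria oxidise. Peroxisome proliferator-activated receptors (PPARs) are nuclear receptors that sense fatty acids and switch on genes for their uptake, storage and oxidation. Ucp3, which encodes a carrier of the uncoupling protein family in the inner mitochondrial membrane, is a classic PPAR target in muscle and heart. Ageing hearts are also studied for a return of fetal contractile genes, for loss of dividing cells, for inflammation and for the circadian clock, and gene lists for these were followed beside the lipid genes.

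The arrays read as heart muscle. The 10 cardiomyocyte markers averaged 12.71 to 12.81 on each of the 6 NTG arrays, and arrays of the same age correlated at 0.962 to 0.983 over genes. Several features differed between single hearts. Xist, the noncoding RNA that coats the inactive X, stood at 4.26, 9.66 and 10.04 at 4 months and at 9.42, 9.89 and 4.59 at 12 months, in the order of replicates 1 to 3. Eif2s3y, a Y-linked gene, stood at 8.20, 3.17 and 2.80 and then at 2.83, 2.82 and 7.90, so 1 heart of 3 carried Y-linked signal at each age, but under different replicate numbers. Myl7, an atrial myosin light chain, was highest on replicate 2 of each age (4.93, 7.81 and 6.20 at 4 months, 5.51, 8.58 and 5.25 at 12 months). The 26 immediate-early genes, which cells induce quickly when stimulated, averaged 8.0, 6.88 and 6.78 at 4 months and 7.89, 6.82 and 7.07 at 12 months. Replicate 1 of each age was thus higher than the other NTG arrays. The arrays of the other genotypes ran from 6.85 to 8.83 with a median of 8.02, so replicate 1 was near their usual level. Replicate 1 of 12 months also stood apart in interferon genes, described further on.

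Ucp3 rose with age in NTG hearts. Its level was 6.63, 6.60 and 6.75 on the 3 arrays of 4 months and 8.10, 8.65 and 8.98 on the 3 arrays of 12 months. The groups did not overlap, and the lowest old heart lay more than 1 log2 unit above the highest young heart. The rise was 1.92 ± 0.277 (SE) on the log2 scale, 3.78-fold, in a limma model of all 24 arrays (Benjamini-Hochberg adjusted p = 0.0141 over 15918 genes). Within same-numbered pairs of hearts the difference was 1.47, 2.05 and 2.23. It was the 1 gene called at an adjusted p under 0.05, which is 0.00628% of the genes tested. The call held without replicate 1 of 12 months (adjusted p = 0.00747) and without replicate 3 of 4 months (adjusted p = 0.0402). It was lost in the other leave-outs and in NTG alone: the adjusted p was 0.155 without replicate 2 and 0.241 without replicate 3 of 12 months, 0.123 without replicate 1 and 0.148 without replicate 2 of 4 months, and 0.128 from the 6 NTG arrays alone, with the difference between 1.72 and 1.92 in these fits. With the replicate number as a block shared by all 24 arrays, the adjusted p was 0.00101. It lay between 2.82e-05 and 0.0221 whichever NTG array was left out. That shared block does not pair the NTG arrays by themselves. From the 6 NTG arrays alone with the block, Ucp3 was not called, as given further on.

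Ucp3 and Cpt1a, the 2 members of the PPAR list with the smallest p, carry the hexamer AGGTCA upstream of their start. This hexamer is the core element that nuclear receptors, PPARs included, bind in pairs. It was searched on both strands in RefSeq promoters of the GRCm38.p6 assembly, windows of 300 bases from 250 before to 50 after the start. The 250 bases before the start are shown 5′ to 3′ on the gene's strand, with the hexamer or its reverse complement TGACCT in capitals. The Ucp3 stretch is chr7:100472741-100472990 on the plus strand, and the Cpt1a stretch chr19:3323051-3323300 on the plus strand.
Ucp3: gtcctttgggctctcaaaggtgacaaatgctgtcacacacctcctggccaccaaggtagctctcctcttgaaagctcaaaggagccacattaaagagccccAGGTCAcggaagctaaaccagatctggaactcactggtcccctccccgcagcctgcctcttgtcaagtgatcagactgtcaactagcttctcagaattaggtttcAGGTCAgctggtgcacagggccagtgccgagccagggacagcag
Cpt1a: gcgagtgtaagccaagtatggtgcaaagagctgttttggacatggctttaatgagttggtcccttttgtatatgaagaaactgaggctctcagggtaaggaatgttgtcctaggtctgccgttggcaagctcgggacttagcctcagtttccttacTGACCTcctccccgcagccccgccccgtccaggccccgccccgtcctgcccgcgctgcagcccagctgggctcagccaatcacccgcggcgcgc
In Ucp3 the hexamers begin 149 and 44 bases before the start, and in Cpt1a 94 bases before it. Of 20 promoters of 16 matched PPAR list genes, 5 held the hexamer (25%), against 16.3% of all 32851 promoters. These belonged to Ucp3, Cpt1a, Plin2 and Plin5. Pdk4, the list member with the next smallest p, was not among those genes. None of the 20 held a pair of hexamers with 1 base between them, the PPAR element, which occurs in 0.0396% of all promoters. A match is a description of letters in this window and not a binding site.

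PPAR target genes had higher means in the old NTG hearts, with Ucp3 called and the rest not called. Its 19 tested genes, of 25 listed, averaged 8.46, 8.33 and 8.10 per array at 4 months and 8.63, 8.88 and 8.65 at 12 months. The 3 old arrays lay above the 3 young ones, and also above each of the 18 arrays of the other genotypes, which reached 8.49. Of the 19 genes, 15 had a higher mean at 12 months, and the median difference was 0.29, where 48.5% of all genes tested had a higher mean and their median was -0.0044. Ucp3 was called and 6 more had an unadjusted p under 0.05, all higher, beside 1.65% of all genes in either direction. In the same-numbered pairs the list's median difference was 0.05, 0.34 and 0.35, so replicate 1 showed little of it. Without replicate 2 of 12 months or without replicate 3 of 4 months 4 genes had such a p, and the median stayed between 0.25 and 0.38 whichever NTG array was left out.

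**Figure D1:**
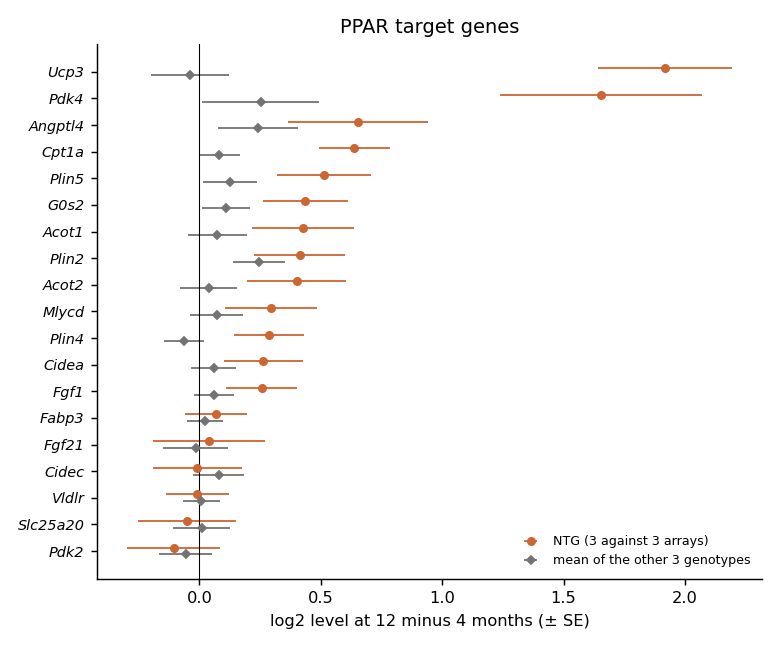
Age differences of the 19 PPAR target genes tested, as the log2 level at 12 months minus that at 4 months with its standard error. Orange points are the 3 against 3 NTG arrays, where Ucp3 and Pdk4 stand at 1.92 and 1.65, and grey diamonds the mean of the other 3 genotypes, whose median is 0.06.

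The 6 further genes act at different steps of fuel handling. Cpt1a, the enzyme that commits long-chain fatty acids to mitochondria by loading them onto carnitine, stood at 7.95, 7.78 and 7.91 in young and 8.34, 8.71 and 8.51 in old hearts. The groups did not overlap and differed by 0.64 ± 0.145 (adjusted p = 0.535). Pdk4, the kinase that shuts pyruvate dehydrogenase and so spares glucose, stood at 10.80, 9.69 and 9.19 against 11.17, 11.96 and 11.51, a difference of 1.65 ± 0.416 (adjusted p = 0.889). Young replicate 1 lay closer to the old hearts than to the other young ones.
The other 4 concern stored fat. Plin5 and Plin2 coat lipid droplets and differed by 0.51 and 0.41. G0s2, an inhibitor of the main droplet lipase, differed by 0.44, and Angptl4, a secreted inhibitor of lipoprotein lipase, by 0.65. The 3 arrays of each age overlapped for Plin5 and Angptl4. Members with smaller differences included Acot1 (0.43) and Acot2 (0.40), which release fatty acids from CoA, and Mlycd (0.29), which removes the malonyl-CoA that restrains carnitine loading. Fabp3 (0.07), the abundant fatty acid carrier of heart muscle, Fgf21 (0.04), Vldlr (-0.01), Cidec (-0.01), Slc25a20 (-0.05) and Pdk2 (-0.11) differed by less than their standard errors.

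The wider list of fatty acid genes was centred near 0. Over 27 genes of fatty acid uptake and oxidation, which share Ucp3 and Cpt1a with the PPAR list, 20 had a higher mean at 12 months but the median difference was 0.04. Ucp3 was the member called, and Cpt1a the other member with an unadjusted p under 0.05. The balance leaned on replicate 3 of 4 months, without which 11 means were higher and 16 lower, with a median of -0.02. The median over the other leave-outs lay between 0.02 and 0.09. The fatty acid transporter gene Cd36 stood at 12.53, 12.45 and 12.12 against 12.59, 12.55 and 12.46, a difference of 0.17 ± 0.151 with overlapping groups. The 48 genes of oxidative phosphorylation had a median difference of -0.01, with none at an unadjusted p under 0.05 in limma and a range of -0.09 to 0.14. Glycolysis and glucose use (24 genes) had a median of -0.04, with Pdk4 its member at such a p.

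Over all genes, 262 had an unadjusted p under 0.05 in NTG, 156 higher (0.98%) and 106 lower (0.666%) at 12 months. With replicate number added to the model as a block shared by all genotypes, 685 had such a p and Ucp3 was again the 1 gene called. The 3 arrays of the ages did not overlap for 651 genes (4.09%), of which 302 were higher (1.9%) and 349 lower (2.19%) at 12 months. The 20 genes of smallest p are named here, pseudogenes and predicted genes left out, and those other than Ucp3 were not called. That leaves out the pseudogene Nlrp5-ps, which ranked at 15 by p with a difference of 0.63, so the last of the 20 is Acsm5 at rank 21.

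Myh7, the slow β isoform of cardiac myosin that predominates in the fetal ventricle, came next after Ucp3. It stood at 9.98, 9.98 and 10.77 in young NTG hearts and at 11.18, 11.61 and 11.46 in old ones. The groups did not overlap and differed by 1.17 ± 0.207, 2.25-fold (adjusted p = 0.116). Replicate 3 of 4 months stood apart from the other young hearts, and without it the difference was 1.43 (adjusted p = 0.0081). Over the list of 21 fetal and hypertrophy genes, Myh7 included, the median difference was 0.04 and 13 were higher. The atrial natriuretic peptide gene Nppa stood at 9.98, 10.44 and 11.09 against 10.35, 11.40 and 10.97, a difference of 0.40 ± 0.28 with overlapping groups. Casq1, the calcium-binding protein of the skeletal sarcoplasmic reticulum, was the lower member at an unadjusted p under 0.05, by -0.48 ± 0.231. Pln, which encodes phospholamban, and Tpm1, which encodes α-tropomyosin, are the genes that the other genotypes alter. In NTG hearts they differed by 0.04 ± 0.324 and 0.03 ± 0.0889. The standard error of Pln is wide because all 8 groups share 1 estimate of the spread. Its SD was 0.065 and 0.070 in NTG at 4 and 12 months, against 1.02 and 0.50 in PLB KO.

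Several other genes of smallest p had old hearts all above the young ones, without being called. Slc25a22, a mitochondrial glutamate carrier, stood at 7.12, 7.24 and 7.28 in young and 7.65, 8.12 and 7.85 in old hearts (0.66 ± 0.124, adjusted p = 0.16). Slc41a3, of a family of magnesium transporters, stood at 8.31, 8.41 and 8.37 against 9.47, 9.48 and 9.38 (1.08 ± 0.213, adjusted p = 0.213). Its 3 arrays of each age lay close together, with an SD of 0.0542 at 4 months and 0.0589 at 12 months. Prkcq, protein kinase C theta, stood at 6.30, 6.71 and 6.81 against 7.54, 7.77 and 7.65 (1.04 ± 0.217, adjusted p = 0.313). Efemp1, which encodes an extracellular fibulin, stood at 6.45, 6.22 and 6.47 against 6.98, 7.97 and 8.23 (1.34 ± 0.315), and all 3 old hearts lay above the young ones. The complement gene C4b stood at 5.96, 5.96 and 6.33 against 7.07, 7.03 and 7.21 (1.02 ± 0.295), also without overlap.

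Smaller higher means among the 20 were those of Lrrc52 (0.74), an auxiliary channel subunit, Tmem100 (0.71), an endothelial membrane protein, Acsm5 (0.65), a medium-chain acyl-CoA synthetase, Sema3a (0.56), an axon guidance signal, Bst1 (0.56), an ADP-ribosyl cyclase, Msln (0.56), mesothelin, and Dixdc1 (0.44). The 4 genes with lower means in old hearts were Wee1, Diaph3, Ifitm1 and Lonrf1. Wee1, the kinase that holds the mitotic kinase inactive, stood at 8.17, 8.69 and 8.75 against 7.38, 7.96 and 7.85 (-0.81 ± 0.172, adjusted p = 0.354). Diaph3, a formin that nucleates actin, differed by -0.78, Ifitm1, an interferon-inducible membrane protein, by -0.46 and Lonrf1 by -0.96. Each of the 3 young hearts lay above the 3 old ones for these 4 genes. Array weights, which lean on replicate 2 of 4 months (weight 4.29), called 11 genes, 10 of them among these 20 and the last Nlrp5-ps, the pseudogene left out of them.

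**Figure D2:**
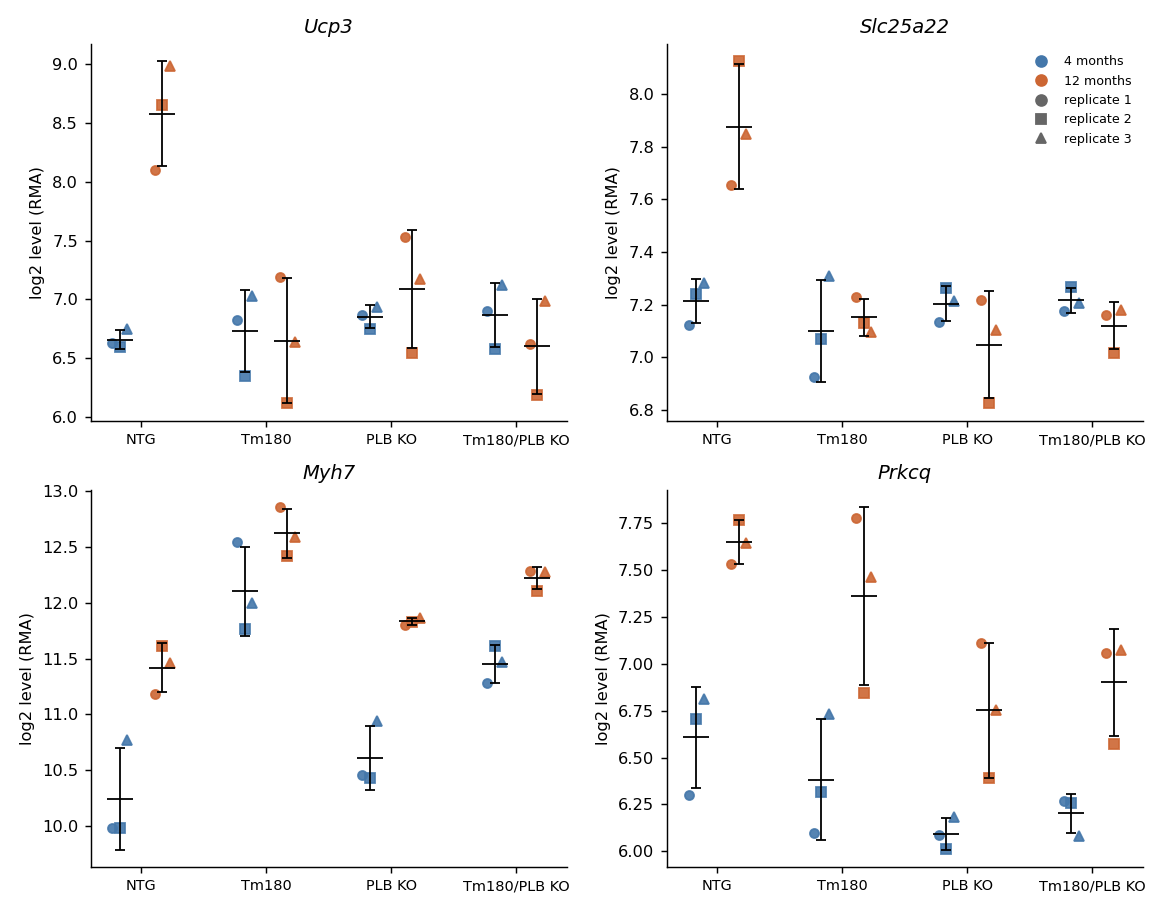
Log2 levels of Ucp3, Slc25a22, Myh7 and Prkcq on each of the 24 arrays by genotype and age, with marker shape for the replicate number and black bars for the mean and SD of 3 arrays. The 3 NTG arrays of 12 months lie above all other arrays for Ucp3 and Slc25a22, whereas Myh7 and Prkcq have higher means at 12 months in every genotype.

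The same ages were then compared in the other genotypes, to see which NTG differences recurred in hearts that shared no array with them. Their sex signal was not matched. In PLB KO, Xist stood at 4.13, 4.45 and 4.64 at 4 months and at 9.42, 9.47 and 9.85 at 12 months. Age and sex signal cannot be told apart there. In Tm180 Xist stood at 4.14, 9.79 and 10.24 and then at 9.94, 4.59 and 4.79. In Tm180/PLB KO it stood at 9.61, 9.56 and 10.01 and then at 9.76, 4.17 and 10.07. The mean age difference over Tm180, PLB KO and Tm180/PLB KO, 9 arrays against 9, called 11 genes (0.0691%), 9 higher (0.0565%) and 2 lower (0.0126%). Myh7 rose there by 0.84 ± 0.12 (adjusted p = 0.0123) and Prkcq by 0.78 ± 0.125 (adjusted p = 0.0125). The NTG differences of these genes were 1.17 and 1.04, and the difference between NTG and the others was 0.33 ± 0.239 and 0.26 ± 0.25. The 7 further genes that rose with age in the other genotypes had smaller NTG differences, none of them called: Ndnf, a secreted neurotrophic factor (0.49 there, 0.45 in NTG), Thsd7a (0.52 and 0.41), the complement protease gene C1s1 (0.66 and 0.40), the cadherin gene Cdh22 (0.69 and 0.39), Vgll2, a transcription cofactor of muscle (0.72 and 0.29), Ces2g (0.57 and 0.24) and Abat, GABA transaminase (0.37 and 0.18). The 2 whose mean over the other genotypes fell were Slc16a13, of the monocarboxylate transporter family (-1.06 and -0.23), and the repressor gene Bcl6b (-0.82 and -0.48). Their differences in Tm180 alone were close to 0, at 0.0054 for Slc16a13 and -0.03 for Bcl6b. In PLB KO both stood at -1.15, and the double mutant had -2.03 for Slc16a13 and -1.28 for Bcl6b. So all 11 had the same sign in NTG, where 59.2% of all genes tested shared their sign. The count was 7 without PLB KO replicate 3 of 12 months, and 6 without Tm180 replicate 3 of 12 months, Tm180 replicate 2 of 4 months or Tm180/PLB KO replicate 2 of 4 months.

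Ucp3 had small age differences of either sign in the other genotypes. Its 18 values in the other genotypes ran from 6.12 to 7.53, all below the lowest old NTG heart at 8.10. Its age difference was -0.08 in Tm180, 0.23 in PLB KO, -0.27 in the double mutant Tm180/PLB KO, and -0.04 ± 0.16 over them. The difference between NTG and that mean was 1.96 ± 0.32, which did not pass the threshold (adjusted p = 0.0805). It passed with the replicate block (adjusted p = 0.00596), although some same-numbered arrays of Tm180 and Tm180/PLB KO correlated near 0. Without the block it passed without replicate 1 of 12 months in NTG (0.0311), PLB KO (0.0392) or Tm180 (0.0219). Against single genotypes it was 2.0 for Tm180 (adjusted p = 0.806), 1.69 for PLB KO (adjusted p = 1.0) and 2.19 for Tm180/PLB KO (adjusted p = 0.27). With the block these adjusted p-values were 0.0684, 0.549 and 0.0212, so the last passed. Limma called 0 genes in the comparison with the mean of the others, where 136 genes (0.854%) had an unadjusted p under 0.05.

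The 4 other genes of smallest p in that comparison were Slc25a22, Prr30, Lgals4 and Cpt1a. Slc25a22 lay between 6.83 and 7.31 on the 18 other arrays, below all 3 old NTG hearts, and its age differences differed by 0.73 ± 0.143 (adjusted p = 0.424). Lgals4, a galectin, had an age difference of 0.64 in NTG and -0.15 in the others, and Prr30 one of 0.44 in NTG. Cpt1a differed by 0.64 in NTG and 0.08 in the others, a difference of 0.56 ± 0.168. Pdk4 differed by 1.65 and 0.25, and the gap between them was 1.40 ± 0.481 (adjusted p = 1.0). The PPAR list had a median age difference of 0.06 in the other genotypes, with 15 of 19 means higher, where 52.1% of all genes had a higher mean.

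Across all genes, the NTG and the other age differences correlated at 0.315 and shared their sign in 59.2%. These values describe 15918 genes that are not independent of each other. Of the 262 genes with an unadjusted p under 0.05 in NTG, 213 (81.3%) had the same sign in the other genotypes. Of those, 77 also had such a p there, where 4.81% of all genes did, and 3 more had it with the opposite sign.

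**Figure D3:**
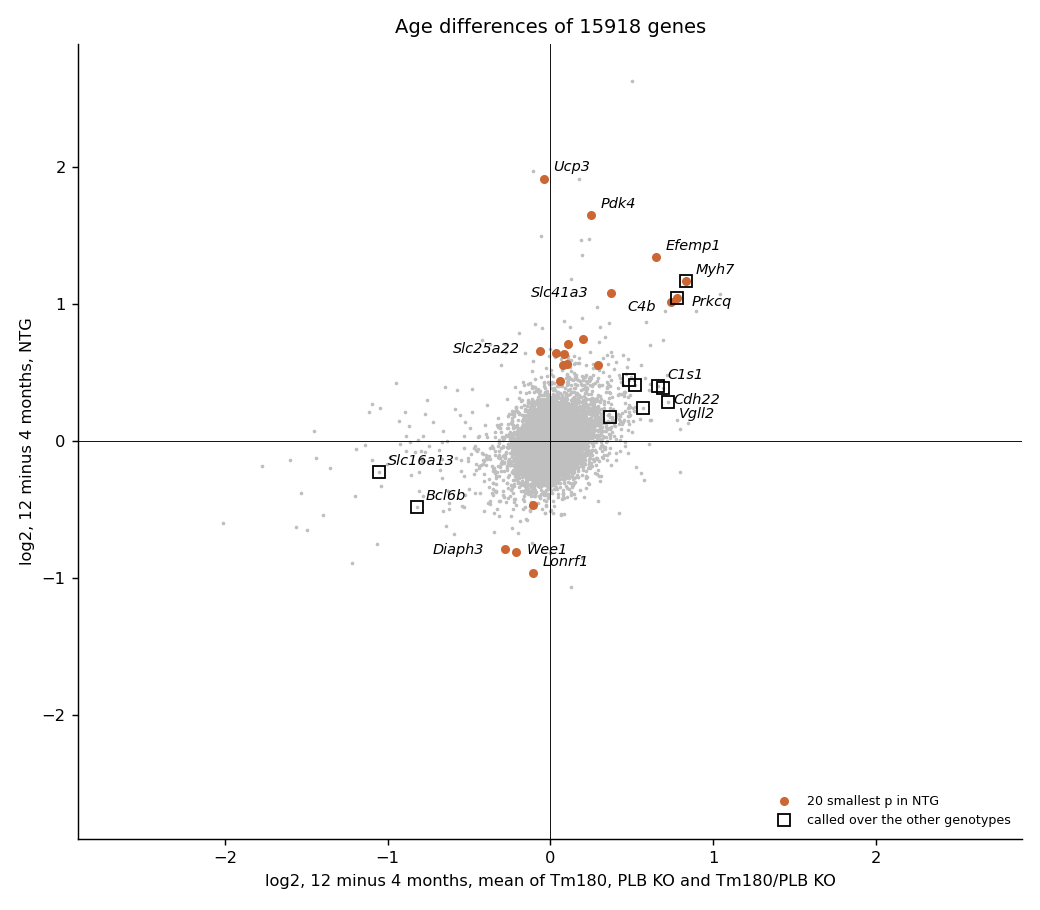
Log2 age difference (12 minus 4 months) of 15918 genes in NTG, vertical axis, against the mean of the other 3 genotypes, horizontal axis. Orange points are the 20 genes of smallest p in NTG with the pseudogene Nlrp5-ps left out, open squares the 11 genes called over the other genotypes, and grey points all genes. Ucp3 and Slc25a22 lie near 0 on the horizontal axis and Pdk4 at 0.25, and Myh7 and Prkcq lie high on both.

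Most clock genes had lower means in old hearts, and none of them was called. In the clock, Arntl (BMAL1) and Clock drive the Per and Cry repressors and the output genes Dbp, Tef and Hlf. Arntl stood at 5.53, 5.72 and 5.91 in young and 6.54, 6.54 and 6.31 in old NTG hearts, a difference of 0.74 ± 0.238 without overlap, and 0.69 ± 0.138 over the other genotypes (adjusted p = 0.0722). Tef stood at 8.70, 9.01 and 8.85 against 8.32, 8.63 and 8.59 (-0.34 ± 0.127), also without overlap, and differed by -0.23 in the others. Other members were Per3 (-0.41), Per2 (-0.35), Hlf (-0.31), Usp2 (-0.20), Cry1 (-0.21), Cry2 (-0.13) and Dbp (-0.15) on the lower side, and Clock (0.24) and the Rev-erb gene Nr1d1 (0.48) on the higher. Of 19 tested clock genes 14 had a lower mean at 12 months, with a median of -0.14 in NTG and -0.14 in the others. The NTG median was -0.09 without replicate 2 of 4 months. The labels do not give the hour at which hearts were taken, and its part in these values was not tested.

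Promoters of Tef and Per3, the output gene and the repressor gene with the smallest p on the lower side, hold the elements through which the clock acts. The E-box CACGTG is the element that BMAL1 and CLOCK bind, and the D-box TTATGTAA the element that DBP, TEF and HLF bind. The stretches shown are the 250 bases before the start in GRCm38.p6, with these elements in capitals. Tef lies at chr15:81802423-81802672 on the plus strand (the first of its 2 listed promoters), and Per3 at chr4:151044666-151044915 on the minus strand.
Tef: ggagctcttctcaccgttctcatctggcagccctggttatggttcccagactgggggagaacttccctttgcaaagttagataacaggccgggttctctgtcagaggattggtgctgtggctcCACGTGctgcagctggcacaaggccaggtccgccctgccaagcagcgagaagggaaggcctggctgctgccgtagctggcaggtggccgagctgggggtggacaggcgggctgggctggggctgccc
Per3: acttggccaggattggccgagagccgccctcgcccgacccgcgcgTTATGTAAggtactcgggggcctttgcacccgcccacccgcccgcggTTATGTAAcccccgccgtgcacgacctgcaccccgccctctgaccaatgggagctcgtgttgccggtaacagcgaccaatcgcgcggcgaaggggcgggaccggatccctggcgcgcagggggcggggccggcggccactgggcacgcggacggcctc
The E-box of Tef begins 127 bases before the start and the D-boxes of Per3 begin 205 and 158 bases before it. Of 25 promoters of 17 matched clock genes 6 held CACGTG (24%), against 7.15% of all promoters, and 1 held TTATGTAA (4.0%), against 0.938%.

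Genes of dividing cells had lower means in old NTG hearts. Of 25 tested cell cycle genes 22 had a lower mean, with a median of -0.19, and the list averaged 5.95, 5.98 and 6.33 per array at 4 months and 5.91, 5.75 and 5.91 at 12 months. Young replicate 3 stood well above the other arrays. None was called by limma, and 5 had an unadjusted p under 0.05, all lower. Kif20a, a mitotic kinesin, stood at 4.96, 5.16 and 5.15 against 4.78, 4.74 and 4.80 (-0.31 ± 0.104). Prc1, which bundles the spindle midzone, stood at 4.87, 4.86 and 5.49 against 4.41, 4.37 and 4.54 (-0.63 ± 0.213). The groups did not overlap for these. Ccna2, cyclin A2, differed by -0.67, Mki67, the proliferation marker Ki-67, by -0.58 and Top2a, a topoisomerase of dividing cells, by -0.66, with overlapping groups. These 3 were chosen after their values were seen. Many of these levels lie close to the dim filter at 4.83. Without replicate 3 of 4 months 1 of the 25 had such a p and the median was -0.12, and without replicate 2 of 12 months 3 had it. The other genotypes had a median of -0.14 with 22 of 25 lower. Fewer dividing cells and less of their RNA per cell cannot be told apart in bulk tissue.

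**Figure D4:**
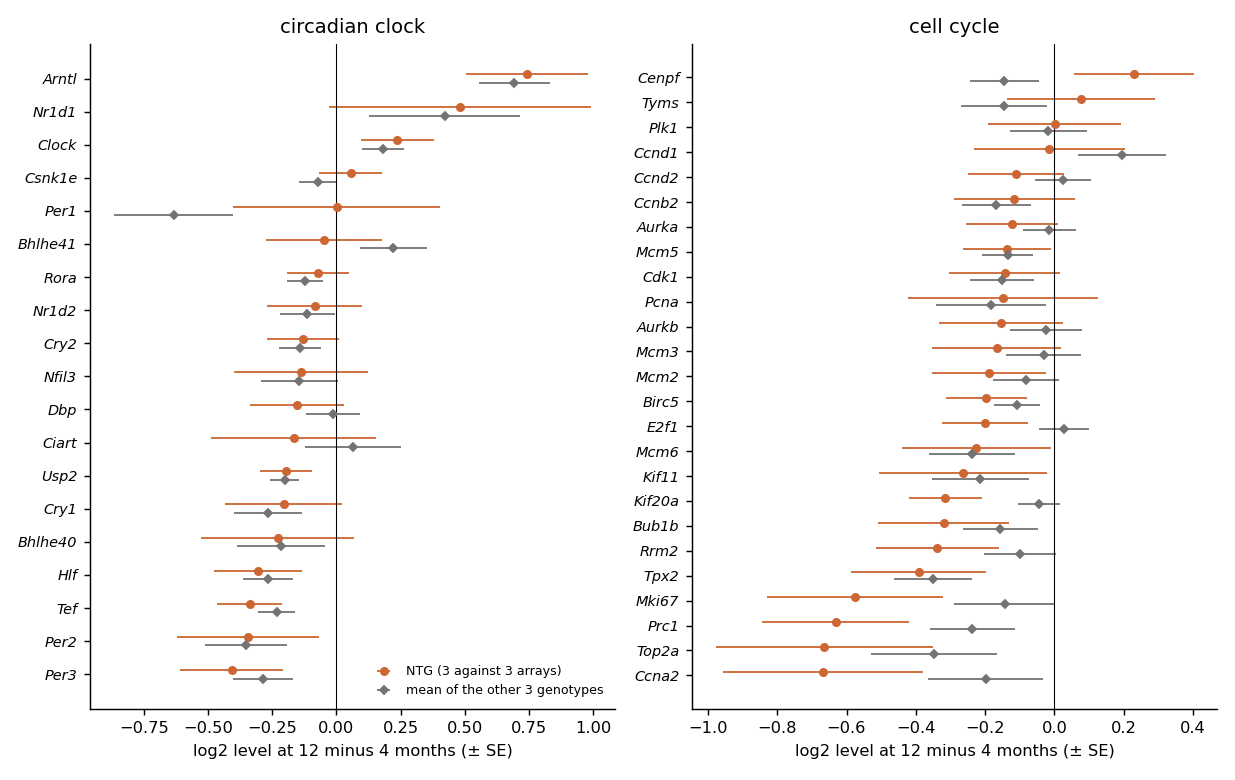
Age differences of 19 clock genes (left) and 25 cell cycle genes (right), as the log2 level at 12 minus 4 months with its standard error. Orange points are NTG and grey diamonds the mean of the other 3 genotypes. Arntl is highest in both at 0.74 and 0.69, and 22 of the 25 cell cycle genes lie below 0 in NTG.

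Markers of the heart's outer lining had higher means in old NTG hearts. Of 10 tested epicardium and mesothelium markers 8 had a higher mean in old NTG hearts, with a median of 0.34, and none was called. Msln stood at 5.68, 5.33 and 5.46 against 5.78, 6.08 and 6.28 (0.56 ± 0.151). Upk1b, a uroplakin of mesothelium, stood at 5.89, 4.95 and 5.38 against 6.09, 6.13 and 6.59 (0.86 ± 0.267). The groups did not overlap for either. Upk3b (0.72) and Lrrn4 (0.76) also had an unadjusted p under 0.05 and were chosen after their values were seen. The list averaged 6.16, 5.78 and 5.90 per array at 4 months and 6.12, 6.29 and 6.49 at 12 months, and its median within same-numbered pairs was 0.01, 0.49 and 0.62. Replicate 1 showed little of the difference. The other genotypes had a median of 0.19 with 7 of 10 higher. How much outer lining each piece of ventricle held was not tested.

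Complement genes, part of innate immunity and made by many heart cells, stood somewhat higher. Of 16 tested members 11 had a higher mean, with a median of 0.18, and 0.17 in the other genotypes. Within same-numbered pairs the median was 0.35, 0.12 and 0.00033, so replicate 3 showed little of it. Besides C4b, C1ra stood at 5.22, 5.21 and 5.22 against 5.75, 5.63 and 5.38 (0.37 ± 0.16), with the old hearts above the young ones. Serping1, the C1 inhibitor, differed by 0.31 and was chosen after its values were seen. None of the 3 was called. Without replicate 2 of 12 months 1 member had an unadjusted p under 0.05, and without replicate 2 of 4 months the median was 0.28. Of the markers of immune cells, those of macrophages (13 genes) had a median of 0.11, T and NK cells (9) -0.07, B and plasma cells (6) 0.04 and neutrophils (6) -0.14, with 0 members of any of them at an unadjusted p under 0.05 in limma.

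Interferon genes were high in 1 of the 3 old hearts. The 29 tested genes averaged 6.46, 6.50 and 6.59 per array at 4 months and 7.94, 6.44 and 6.45 at 12 months. Replicate 1 of 12 months stood alone, above each of the 18 arrays of the other genotypes, which ran from 6.37 to 6.83. Irgm1, an interferon-inducible GTPase, was 11.21 on that array, at most 7.16 on the other NTG arrays and at most 7.96 elsewhere. Iigp1, of the same family, was 11.84, against at most 7.20 and 8.53. The chemokine gene Cxcl9 (7.45 against at most 5.42 in the other NTG hearts), the peptide transporter gene Tap1 (8.89 against 6.93) and the immunoproteasome gene Psmb9 (9.82 against 7.71) were high as well. That array held the highest of the 6 NTG values for 25 of the 29 genes. It lay more than 1 log2 unit above all other NTG arrays for 38 genes of the 15918, 11 of them in the list, and replicate 1 of 4 months did so for 19, none of them in the list. Among the 38, chosen after their values were seen, were the checkpoint ligand gene Cd274 (10.25 against 6.96) and the guanylate-binding protein genes Gbp3, Gbp7, Gbp4 and Gbp8.

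The list's age difference was near 0 without that heart. Its median was 0.36, with 25 of 29 higher and 5 at an unadjusted p under 0.05, and without replicate 1 of 12 months it was -0.05, with 12 higher and 0 at such a p in limma. Within same-numbered pairs the median was 1.30, -0.05 and -0.10, and in the other genotypes it was 0.01. The genes of MHC class II antigen presentation were also highest on replicate 1 of 12 months, at a list mean of 7.26 against at most 6.76 on the other NTG arrays. The Hspa1a heat shock gene stood at 8.99 there and at most 7.09 on the other NTG arrays, and its cochaperone gene Dnajb1 at 9.55 and at most 7.64. The heat shock list as a whole averaged 10.17 on that array. That lay within the range of the other genotypes' arrays, 9.73 to 10.72 with a median of 10.10. Why this heart differed was not tested.

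**Figure D5:**
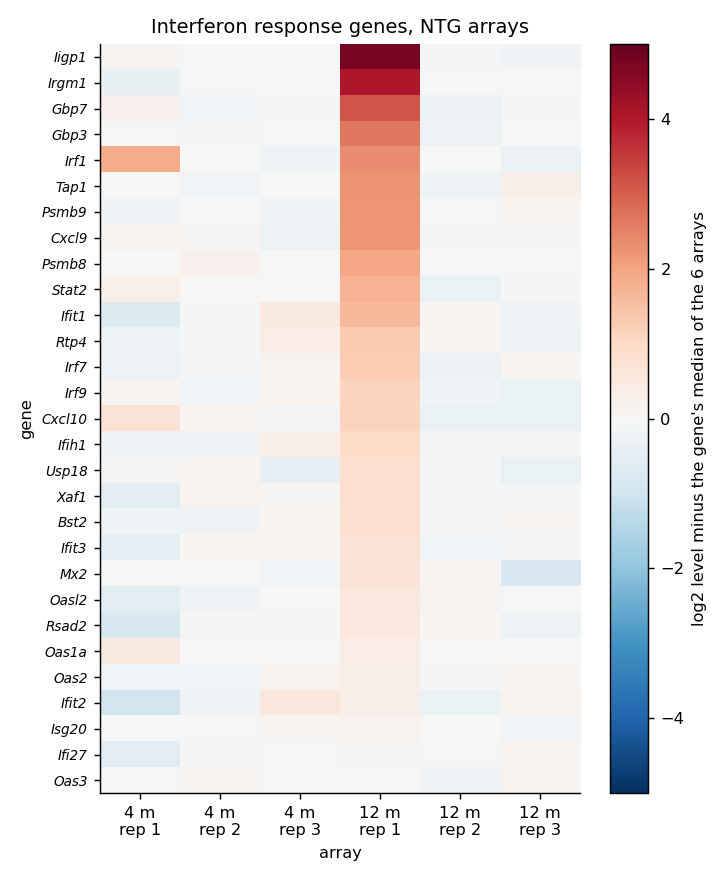
Level of the 29 interferon response genes on the 6 NTG arrays, as log2 level minus the gene's median of the 6 (colour, red above and blue below). Replicate 1 of 12 months is red for most genes, up to Iigp1 and Irgm1 at the top, and the other arrays of 12 months lie near 0.

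Immediate-early genes did not separate the ages in NTG. Their median difference was 0.04 with none of 26 at an unadjusted p under 0.05 in limma. At both ages replicate 1 was higher than the other NTG arrays. Fos stood at 7.46, 4.99 and 5.32 in young and 7.18, 4.97 and 6.26 in old hearts, Atf3 at 8.49, 6.34 and 6.15 against 9.44, 6.27 and 5.99, and Egr1 at 8.73, 6.32 and 6.44 against 7.97, 5.94 and 7.0. Replicate 1 was the highest of its age for all 3. In the other genotypes the same genes had a median of -0.58, lower at 12 months.

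Genes of the matrix, of calcium handling and of electrical activity had medians near 0 in NTG. Over 55 extracellular matrix genes the median was -0.02, with 25 means higher and 30 lower, where the other genotypes had 0.10 with 40 higher. Mmp14, a membrane-anchored matrix protease, differed by 0.49 ± 0.227 and Thbs2, a thrombospondin, by 0.39 ± 0.159, the members with the smallest p, and neither was called. The 23 calcium handling genes had a median of -0.01, and the 24 cardiac ion channel genes -0.04, where Kcnd2, which carries transient outward potassium current, differed by -0.30 ± 0.159. Among 15 adrenergic and angiotensin genes the median was 0.03, and Grk5, a kinase that silences adrenergic receptors, stood at 8.16, 8.08 and 8.18 against 8.50, 8.79 and 8.37, a difference of 0.41 ± 0.143 without overlap. None of these members was called.

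Lists of stress and ageing were also centred near 0. Endoplasmic reticulum stress genes had a lower mean in 17 of 20, by a median of -0.08, opposite in sign to the 0.11 of the other genotypes. Antioxidant genes had a median of -0.0047 over 22, with Nqo1, a quinone reductase, 0.44 ± 0.209 higher and its groups overlapping. Senescence genes and their secreted factors had a median of -0.03 over 20, with none at an unadjusted p under 0.05 in limma. Muscle protein breakdown had a median of 0.00073 over 17, and TGF-beta signalling one of 0.0060 over 22. Among markers of other cells, fibroblasts (12 genes) had a median of 0.02, endothelium (12) 0.04, smooth muscle and pericytes (12) -0.04 and adipocytes (9) 0.15, with Lipe, the hormone-sensitive lipase of fat cells, 0.46 ± 0.158 higher without overlap. The lipase was the 1 member of these 4 lists at an unadjusted p under 0.05.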

How the data were processed

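Left ventricular RNA was measured on Affymetrix arrays, and the authors deposited RMA log2 values per the submitters' processing notes, which name no version. RMA background-corrects, equalises and summarises the probes of each probe set. Neither the genome build nor the RMA settings are stated there. Arrays have no read depth, so their number limits the precision. The p-values set a difference against the spread between arrays called biological replicates, estimated over all 8 groups unless NTG alone is named.

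Genes were named from the platform annotation: 21789 of 35557 probe sets had exactly 1 symbol, 1621 had several and 12147 none. Of the former, 21698 matched a RefSeq gene of GRCm38.p6 by Entrez number. The probe set with the highest mean stood for each gene, and 15918 of 19938 genes exceeded 4.83, the 25th percentile, on at least 3 arrays. Limma 3.58.1 in R 4.3.3 fitted 8 group means to the 24 arrays (16 residual degrees of freedom). All adjusted p-values are limma's with Benjamini-Hochberg adjustment over all genes tested, and a gene was called under 0.05. The script was tested on simulated data.

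Named genes were Pln, Tpm1 and Ucp3, called genes with separated arrays, the 20 of smallest p (predicted genes are not named by the rule, and the pseudogene Nlrp5-ps, at rank 15, was left out with them), the 2 list members of smallest p, the 5 of smallest p in the comparison with the other genotypes, and any clock, PPAR or immediate-early gene. Genes called over the other genotypes were added. The members and lists were chosen with earlier results of these data known, so they give no independent support. Lists are described by counts and medians, with no test.

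Replicate numbers were checked as pairs in NTG. Deviations from the group means correlated at 0.619, 0.496 and 0.539 for same-numbered arrays of the 2 ages. The labels do not say that the numbers pair hearts, so the pairing was taken from the data. What same-numbered arrays share was not tested. The description code has 1 letter per replicate number and 1 number per group (3 for NTG at 12 months, 7 at 4 months). The labels do not explain it, so its number and age cannot be told apart. For replicate 2 of Tm180/PLB KO at 4 months, the source name states 12 months against the title, which was used.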

Additional observations from a re-analysis of the deposited data

How the results depend on the processing

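With the replicate number as a block shared by all genotypes, 1 gene was called in NTG as before. The block changed no call of a named gene there. The count was 0 from the 6 NTG arrays alone (182 genes at an unadjusted p under 0.05 in limma), 11 with array weights, 2 with a Y-linked covariate and 3 with an immediate-early covariate, and without each NTG array in turn it ran from 0 to 2. Among alternatives chosen after seeing the data, it was 0 from the 6 NTG arrays with the block (Ucp3 adjusted p = 0.0618), 3 with block and Y-linked covariate, and 1 to 7 with the block and an array left out, 7 without replicate 1 of 12 months (Ucp3, Hsd17b11, Efemp1, Cpt1a, Slc25a22, Pdk4 and Myh7). Prkcq passed with the Y-linked (adjusted p = 0.039) and the immediate-early covariate, and Slc25a22 with the latter (adjusted p = 0.0195).

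Same-numbered arrays correlated at 0.0538, 0.0227 and 0.346 in Tm180, 0.568, 0.328 and 0.603 in PLB KO, and 0.572, 0.0652 and 0.449 in Tm180/PLB KO. Same-numbered arrays thus resembled each other in PLB KO, whereas some pairs lay near 0 in the other 2. The other genotypes' count of 11 was 56 with the block, 35 with array weights and 17 with the Y-linked covariate. Added later, it was 72 with block and Y-linked covariate, 42 with block and median centring, and 6 to 16 without each of their arrays in turn. In the comparison of NTG with the others the count of 0 was 1 with the block, with array weights, with block and Y-linked covariate and with block and median centring, and 2 with the immediate-early covariate. It ran from 0 to 1 without each array in turn, also with the block. The gene was Ucp3 with the block (adjusted p = 0.00596) and with array weights (0.0112), joined by Slc25a22 (0.0198) with the immediate-early covariate. The cause of these shifts was not tested. The Pln difference ran from -0.00022 (without replicate 1 of 4 months) to 0.077 with an array left out, and that of Tpm1 turned sign with the block without replicate 3 of 12 months (-0.0063) or replicate 1 of 4 months (-0.0097). No filter, a filter at the 50th percentile, a trended prior, median centring and the mean of probe sets left the 3 counts at 1, 11 and 0.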

Other observations

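Of the 13768 probe sets without exactly 1 gene symbol, limma called 0 between NTG hearts of 12 and 4 months, with 330 at an unadjusted p under 0.05 and a lowest adjusted p of 0.568.

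Among the other promoters searched, those of heat shock genes held GAANNTTC, searched on both strands, in 9 of 19 promoters (47.4%), against 7.86% of all promoters of that length. Immediate-early genes held TGACG, which lies within the longer TGACGTCA, in 17 of 27 promoters (63.0%) against 20.8%, and TGACGTCA in 3 of 27 (11.1%) against 1.79%. Glucocorticoid response genes held TGTTCT in 4 of 22 (18.2%) against 19.0%. In NTG hearts the heat shock list had a median age difference of 0.04 over 16 genes and the glucocorticoid list one of 0.03 over 16.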
